A study of Caenorhabditis elegans with 4 samples.

Results

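The insulin-like peptide genes of Caenorhabditis elegans were examined in poly(A) RNA-seq of whole L3 larvae. Members were the protein-coding genes present in the count tables of both genotypes whose symbol is ins- followed by a number, or daf-28. This rule found 39 genes among 46748 counted genes, of which 19641 were protein-coding. The tested animals were met-2 set-25 double mutants (strain GW638, alleles n4256 and n5021) and the controls were wild type (N2), both grown at 20°C on plates and not otherwise treated. There were 2 libraries per genotype, the mutant pair being rWQS029 and rWQS045 and the N2 pair rWQS019 and rWQS042. MET-2 and SET-25 deposit nearly all H3K9 methylation, a mark of silent chromatin, and the comparison asks how transcripts differ when both enzymes are lacking.

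Insulin-like peptides are small secreted hormones, cut from longer precursors, and many are released by sensory neurons or by the intestine. They act on DAF-2, the insulin receptor of the worm, as agonists that activate it or as antagonists that oppose it. DAF-2 signals through phosphoinositide 3-kinase and AKT to keep the transcription factor DAF-16 out of the nucleus. The pathway governs dauer entry, growth, germline proliferation, fat storage and lifespan.

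Library totals ran from 22849521 to 56879896 counts. The insulin-like genes together took 6505 and 5147 counts in the met-2 set-25 libraries rWQS029 and rWQS045, and 3494 and 8700 counts in the N2 libraries rWQS019 and rWQS042. Of the targeted genes, met-2 (8375300 to 8380848 on chromosome III of WBcel235) was measured at 31.8 and 35.3 CPM in met-2 set-25 and at 62 and 55.9 CPM in N2, where CPM are counts per 1000000 after TMM scaling of the library sizes. set-25 (chromosome III, 13283824 to 13293090) was at 11.5 and 11.6 CPM in met-2 set-25 and at 11.4 and 17.6 CPM in N2. Transcripts of both targeted genes were counted in the mutant, and counts over whole genes do not show where the deletions lie. The met-2 set-25 libraries differed more from each other than the N2 libraries did, with 23% and 10.7% of 15978 tested genes more than 2-fold apart. A list of germline markers summed to 1460 and 2860 CPM in rWQS029 and rWQS045 and to 688 and 735 CPM in rWQS019 and rWQS042. A list of late-larval and adult cuticle genes summed to 6.72 and 41.5 CPM in rWQS029 and rWQS045, against 5.35 and 4.98 CPM in rWQS019 and rWQS042. In whole animals, fewer cells of a type and less RNA per cell cannot be told apart.

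None of the insulin-like genes passed the test between genotypes. edgeR's quasi-likelihood test, adjusted over all genes, called 0 of the 27 members that had enough counts to be tested, beside 0% of all genes tested, and the smallest adjusted p of a member was 0.423. DESeq2 called 0 of 28 members (smallest adjusted p 0.212), beside 3.31% of all genes tested, 2.49% as higher and 0.821% as lower. With so few members, 0 calls do not set the family apart from that share. At an unadjusted p under 0.05 in edgeR there were 2 lower members, ins-1 and ins-5, and 0 higher members, beside 3.87% of all genes as lower and 6.2% as higher. The median log2 fold change (met-2 set-25 over N2) was 0.018 over the tested members and 0.019 over all genes. The members' quartiles, -0.53 and 0.26, reached somewhat lower than those of all genes, -0.35 and 0.37. The log2 fold change was above 0 for 14 members and below 0 for 13, beside 48.4% of all genes below 0. Without rWQS029, with rWQS045 as the only mutant library, the members' median was -0.73, and without rWQS045 it was 0.13. The medians of all genes in these fits are not given here. Nothing in the labels says that the libraries came from separate cultures, so the spread behind each p-value is that of the libraries and may be technical.

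**Figure D1:**
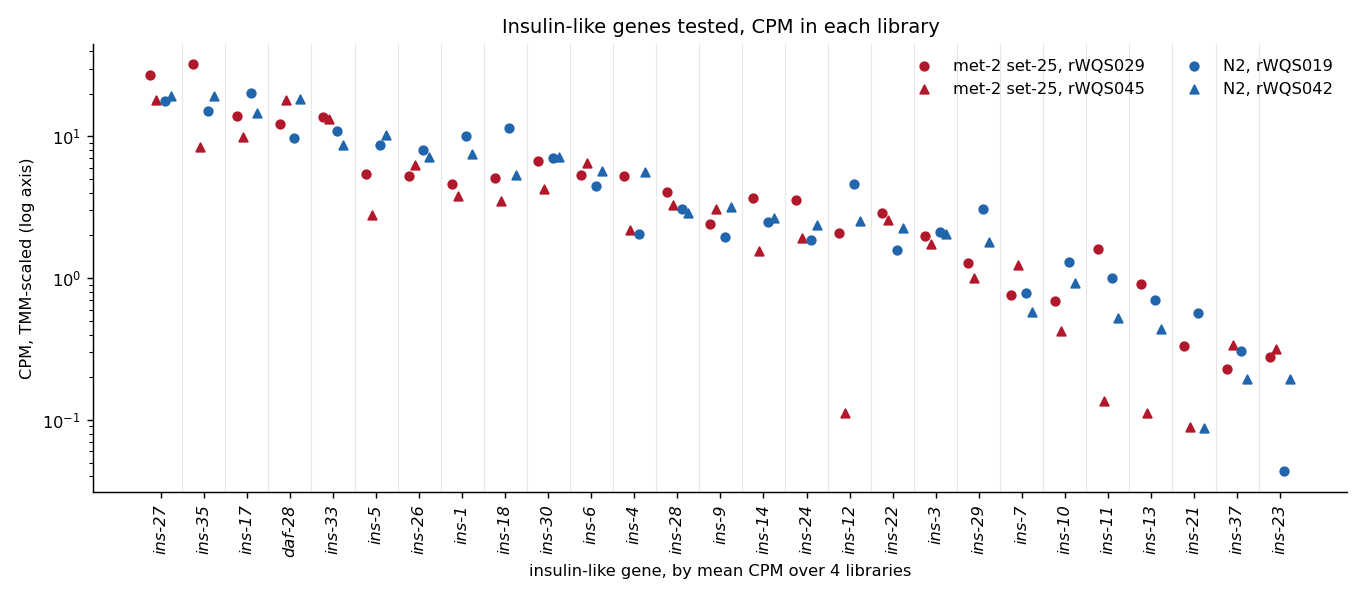
CPM (TMM-scaled, log axis) of the 27 insulin-like genes tested, with 1 point per library; met-2 set-25 in red, left of N2 in blue, ordered by the mean over 4 libraries. ins-27 stands highest on average, and ins-11, ins-12 and ins-13 are low in the met-2 set-25 library rWQS045 alone.

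The repertoire expressed at L3 was uneven. Per kilobase of annotated exon, ins-27 had the highest level in both genotypes, at 72.5 CPM per kilobase in met-2 set-25 and 59.8 in N2. ins-35, a peptide of the intestine, was the next highest in both, at 53.2 CPM per kilobase in met-2 set-25 and 45.2 in N2. Its place in met-2 set-25 rested on rWQS029, at 84.4 CPM per kilobase, since in rWQS045 ins-35 (22.1) was below ins-33 (25.3) and daf-28 (23.6). They were followed over all 4 libraries by ins-17, ins-33, daf-28 and ins-18. The place of ins-18 was 9 in met-2 set-25 and 4 in N2, and it was highest in rWQS019, at 26.5 CPM per kilobase against 12.4 in rWQS042. Over the 4 libraries ins-27 lay at the 90.6th percentile of the 18835 protein-coding genes with counts, and ins-18 at the 67.5th. The 6 most abundant members of each library, by CPM, took 64.2% of the family's summed CPM in each of rWQS029 and rWQS045, and 56.4% and 59.4% in rWQS019 and rWQS042.

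At the other end, 5 members had at most 3 counts in every library, namely ins-2, ins-8, ins-19, ins-31 and ins-34. A count of 0 allowed up to 0.0761 and 0.0673 CPM in rWQS029 and rWQS045, and 0.131 and 0.0526 CPM in rWQS019 and rWQS042, taken as 3 counts and covering counting error only. ins-19 had 2 and 0 counts in rWQS029 and rWQS045, against 0 in each N2 library, and its neighbour ins-31 had 0 and 3 counts, against 0 in each N2 library. These counts were at or under the floor, so a difference between genotypes was not detectable at this depth. The other 7 untested members, ins-15, ins-16, ins-20, ins-25, ins-32, ins-36 and ins-39, had between 0 and 21 counts in any library.

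The family's summed level was 140 ± 35.1 CPM in met-2 set-25 and 152 ± 0.31 CPM in N2 (SD, n = 2 libraries each). The met-2 set-25 libraries were at 165 and 115 CPM, on either side of both N2 libraries, which were each at 152 CPM. The sum hence overlapped between genotypes, while its composition varied by member.

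Among the agonists, daf-28 is made in the ASI and ASJ sensory neurons and holds larvae out of dauer. daf-28 (chromosome V, 19815133 to 19816454) was at 12.2 and 18.1 CPM in rWQS029 and rWQS045, and at 9.66 and 18.3 CPM in rWQS019 and rWQS042. The ranges overlapped almost wholly, and the log2 fold change was 0.11 with a 95% interval of -1.0 to 1.22 (edgeR adjusted p = 0.942). Its sign changed without rWQS019 (-0.28) and without rWQS045 (-0.20).

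ins-6, which acts with daf-28 in the decision on dauer, was at 5.38 and 6.52 CPM in met-2 set-25 and 4.44 and 5.71 CPM in N2, with a log2 fold change of 0.23 (interval -0.65 to 1.10). ins-4, another agonist and a near neighbour of ins-6 on chromosome II, was at 5.22 and 2.17 CPM in rWQS029 and rWQS045 and at 2.04 and 5.64 CPM in rWQS019 and rWQS042. For ins-4 the libraries within each genotype were thus further apart than the genotype means, which were 3.7 and 3.84 CPM. Its log2 fold change was -0.07 (interval -1.84 to 1.71), and the sign changed without rWQS042 (0.85) and without rWQS045 (0.42). ins-7, an agonist that DAF-16 represses in the intestine, was at 0.761 and 1.23 CPM in met-2 set-25 and at 0.783 and 0.578 CPM in N2. Its log2 fold change was 0.57, with an interval of -0.71 to 1.84.

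ins-1, ins-17 and ins-18, known as antagonists or as promoters of dauer, had negative values without passing the test. ins-1, an antagonist of DAF-2 whose precursor resembles that of human insulin, lies at 10436701 to 10438412 on chromosome IV. It was at 4.62 and 3.79 CPM in rWQS029 and rWQS045, and at 10.1 and 7.52 CPM in rWQS019 and rWQS042. Both mutant libraries lay below both N2 libraries, at means of 4.2 ± 0.585 and 8.8 ± 1.82 CPM (SD, n = 2 libraries each). The log2 fold change was -1.06 with an interval of -1.95 to -0.18, and the edgeR adjusted p was 0.423 (unadjusted 0.0274). Leaving out each library in turn gave log2 fold changes from -1.27 to -0.84 and edgeR adjusted p from 0.169 to 1, with an unadjusted p of 0.195 without rWQS019 and 0.0705 without rWQS042.

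ins-18, another antagonist, was at 5.12 and 3.48 CPM in met-2 set-25 and at 11.4 and 5.36 CPM in N2. The lower N2 library was close to the upper mutant library, and the log2 fold change was -0.96 (interval -2.25 to 0.32, edgeR adjusted p = 0.594). It was -0.32 without rWQS019 and -1.41 without rWQS042. ins-17, which promotes dauer, was at 13.9 and 9.86 CPM in met-2 set-25 and at 20.3 and 14.6 CPM in N2, with a log2 fold change of -0.55 (interval -1.42 to 0.31, edgeR adjusted p = 0.638). Summed, these 3 genes were at 23.6 and 17.1 CPM in rWQS029 and rWQS045 and at 41.8 and 27.5 CPM in rWQS019 and rWQS042. The agonists daf-28, ins-4, ins-6 and ins-7 summed to 23.6 and 28 CPM in rWQS029 and rWQS045 and to 16.9 and 30.3 CPM in rWQS019 and rWQS042. The grouping was made with the values known and carries no test. Whether the antagonists differed from the agonists in their response was not tested.

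Many insulin-like genes are transcribed in neurons. Most neuronal markers had values on the lower side, as did ins-1, ins-17 and ins-18. By contrast daf-28, of the ASI and ASJ neurons, had a log2 fold change of 0.11. Over the tested members of any tissue 13 were below 0 and 14 above, and members were not grouped by tissue. Of 12 pan-neuronal markers 11 had a log2 fold change below 0, beside 48.4% of all genes, with a median of -0.29. Their summed levels were 530 and 454 CPM in met-2 set-25 and 584 and 556 CPM in N2. Of 16 tested markers of sensory neurons 12 were below 0, with a median of -0.38 and summed levels of 52.8 and 47.3 CPM in met-2 set-25 and 65.4 and 62.9 CPM in N2. None of these markers had a count of 0 in all libraries, and edgeR and DESeq2 called 0 of them, beside 0% and 3.31% of all genes. At an unadjusted p under 0.05 edgeR had 0 pan-neuronal and 1 sensory marker as lower, beside 3.87% of all genes. The part of these marker levels in the values of ins-1, ins-17 and ins-18 was not tested.

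ins-3 and ins-33 are known for promoting proliferation of the larval germline through DAF-2. ins-33 (chromosome I, 13637845 to 13639311) was at 13.8 and 13.2 CPM in rWQS029 and rWQS045, and at 10.9 and 8.67 CPM in rWQS019 and rWQS042. Both mutant libraries were above both N2 libraries, and the log2 fold change was 0.47 (interval -0.28 to 1.21, edgeR adjusted p = 0.646). ins-3 was at 1.98 and 1.75 CPM in met-2 set-25 and at 2.13 and 2.05 CPM in N2, with a log2 fold change of -0.17 (interval -1.11 to 0.78). The germline markers had a median log2 fold change of 1.58 over 22 genes (0.84 without rWQS045). DESeq2 called 11 of them as higher and 0 as lower, beside 2.49% and 0.821% of all genes. edgeR called 0, with 13 higher at an unadjusted p under 0.05, beside 6.2% of all genes. The difference between ins-3 and ins-33 and the germline list was not tested.

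ins-35 and ins-11, both linked to the intestine, were lower in rWQS045 than in rWQS029. In contrast ins-7 was higher in rWQS045, at 0.761 and 1.23 CPM in rWQS029 and rWQS045. ins-35 (chromosome V, 20375536 to 20376302) was at 32.2 and 8.43 CPM in rWQS029 and rWQS045, against 15.1 and 19.4 CPM in rWQS019 and rWQS042. The mutant libraries thus lay on either side of both N2 libraries, a difference of 3.81-fold between mutants and of 1.28-fold between N2 libraries. The log2 fold change was 0.23 (interval -1.46 to 1.93), and it was 0.90 without rWQS045 and -1.04 without rWQS029. limma voom gave -0.11. ins-11, which the intestine induces on pathogenic bacteria, was at 1.6 and 0.135 CPM in rWQS029 and rWQS045 and at 1 and 0.526 CPM in rWQS019 and rWQS042. It lay above both N2 libraries in rWQS029 and below both in rWQS045. Its log2 fold change was 0.20 (interval -2.72 to 3.13), -2.44 without rWQS029, -0.21 without rWQS042 and -0.57 in limma voom.

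**Figure D2:**
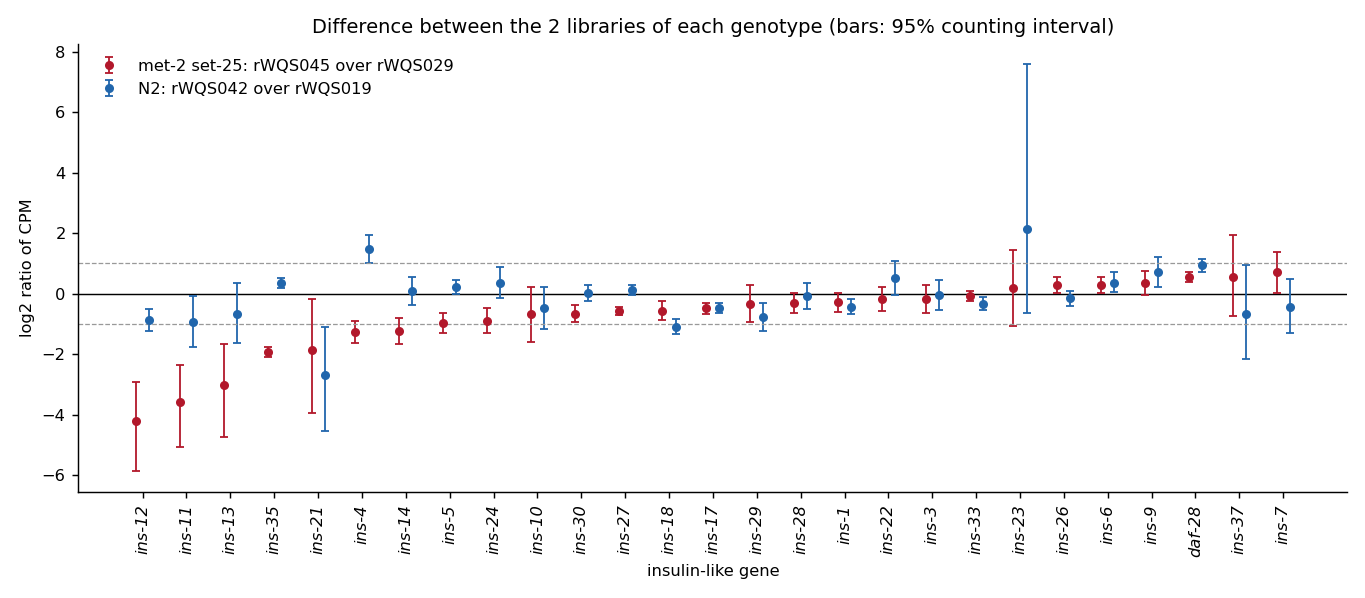
Log2 ratio of CPM between the 2 libraries of each genotype for the 27 tested insulin-like genes, met-2 set-25 (rWQS045 over rWQS029, red) left of N2 (rWQS042 over rWQS019, blue); bars are 95% counting intervals and dashed lines mark 2-fold. The 4 most negative red points are ins-12 (-4.21), ins-11 (-3.57), ins-13 (-3.03) and ins-35 (-1.93).

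Of the 27 tested members, 7 were more than 2-fold apart between the met-2 set-25 libraries (25.9%, beside 23% of all genes), and all 7 were lower in rWQS045. Among all genes 13.6% were more than 2-fold apart with rWQS045 lower. The members were ins-4, ins-11, ins-12, ins-13, ins-14, ins-21 and ins-35. Between the N2 libraries 4 members were more than 2-fold apart (14.8%, beside 10.7% of all genes), namely ins-4, ins-18, ins-21 and ins-23. ins-4 and ins-21 thus varied within each genotype. ins-21 and ins-23 had at most 14 counts in any library.

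The largest of these differences fell on neighbouring genes. ins-12 had 82 and 5 counts in rWQS029 and rWQS045, and 106 and 143 counts in rWQS019 and rWQS042, which is 2.08 and 0.112 CPM in met-2 set-25 and 4.61 and 2.51 CPM in N2. Between the mutant libraries it differed 18.5-fold (log2 ratio -4.21, 95% counting interval -5.87 to -2.93). ins-13 differed 8.17-fold, with 36 and 5 counts in met-2 set-25 and 16 and 25 counts in N2. ins-11, 1.37 kb from ins-12, differed 11.9-fold. The 3 genes lie within 12.7 kb on chromosome II (5544512 to 5557173) and summed to 181 and 16 counts in rWQS029 and rWQS045.

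Both mutant libraries were below both N2 libraries for ins-12, with a log2 fold change of -1.70 (interval -4.87 to 1.47, edgeR adjusted p = 0.683). The value was -4.94 without rWQS029, where rWQS045 with its 5 counts was the only mutant library, and -0.76 without rWQS045. When edgeR was run on unfiltered counts it called ins-12 (adjusted p = 0.0463). That setting called 813 genes as higher and 410 as lower, against 0 and 0 in the main fit. ins-13 shares exon sequence with acdh-2 on the same strand, so its counts are uncertain. acdh-2, an acyl-CoA dehydrogenase gene named after its values were seen, was at 143 and 23.6 CPM in rWQS029 and rWQS045 and at 167 and 190 CPM in rWQS019 and rWQS042. Intestinal markers summed to 8670 and 6570 CPM in rWQS029 and rWQS045 and to 5930 and 6650 CPM in rWQS019 and rWQS042, and hypodermal markers to 2810 and 14400 CPM in rWQS029 and rWQS045 and to 7620 and 8800 CPM in rWQS019 and rWQS042. A list of molting genes summed to 3720 and 9980 CPM in rWQS029 and rWQS045 and to 3680 and 4980 CPM in rWQS019 and rWQS042. The part of these library differences in the values of ins-11, ins-12, ins-13 and ins-35 was not tested.

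Clustering was a shared feature of the family that the rule did not use. Of the 39 members, 25 fell into 7 clusters in which neighbours were at most 30 kb apart, and 14 stood alone. The biggest cluster, ins-24 to ins-30, spans 25.4 kb on the right arm of chromosome I (14012369 to 14037777). It holds 7 members and summed to 47.8 and 34.8 CPM in rWQS029 and rWQS045, on either side of the 41.1 and 40.8 CPM of rWQS019 and rWQS042. Its most abundant member, ins-27, was at 27 and 18 CPM in met-2 set-25 and 17.8 and 19.3 CPM in N2 (log2 fold change 0.28, interval -0.50 to 1.06, and -0.05 without rWQS029).

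ins-29, in the same cluster, was at 1.27 and 1.01 CPM in met-2 set-25 and at 3.05 and 1.79 CPM in N2, with a log2 fold change of -1.08 (interval -2.27 to 0.12, edgeR adjusted p = 0.54). The other 5 tested members of the cluster, ins-24, ins-26, ins-27, ins-28 and ins-30, had log2 fold changes between -0.39 and 0.35. ins-25, with 1 and 4 counts in met-2 set-25 and 6 and 11 counts in N2, was too low to be tested.

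**Figure D3:**
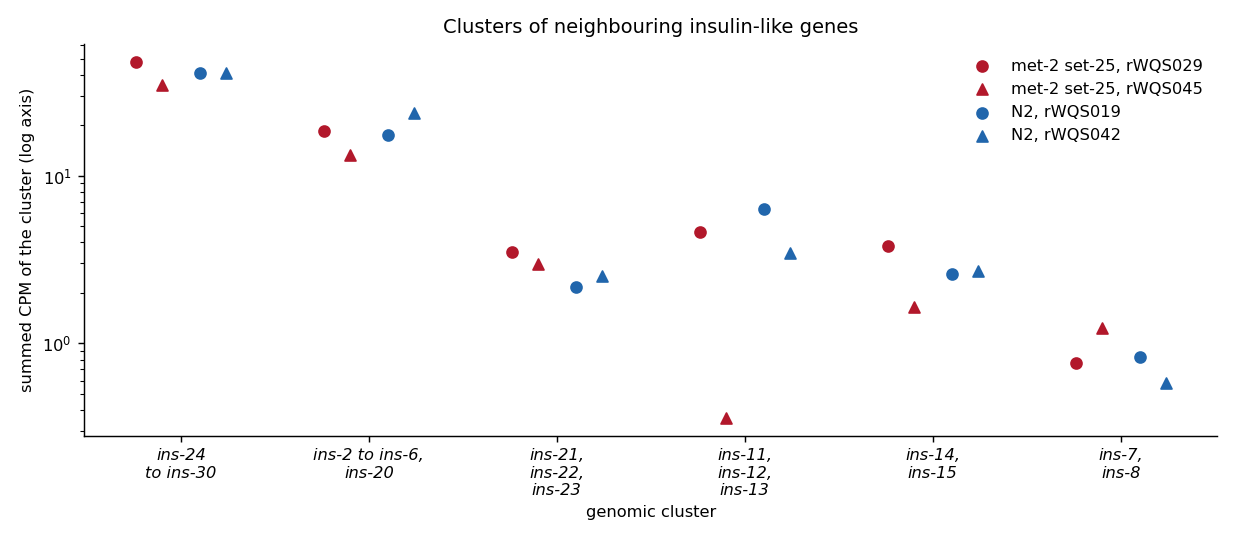
Summed CPM (log axis) of 6 genomic clusters of insulin-like genes, with 1 point per library; met-2 set-25 in red, left of N2 in blue. The ins-11, ins-12 and ins-13 cluster is at 0.359 CPM in the met-2 set-25 library rWQS045 and between 3.47 and 6.31 CPM in the other libraries.

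Another cluster, on chromosome II from 5988524 to 6011321, joins ins-2, ins-3, ins-4, ins-5, ins-6 and ins-20. Its members include the nearly silent ins-2. ins-5 was at 5.4 and 2.78 CPM in rWQS029 and rWQS045 and at 8.74 and 10.2 CPM in rWQS019 and rWQS042. Both mutant libraries were below both N2 libraries for ins-5, with means of 4.09 ± 1.85 and 9.48 ± 1.04 CPM (SD, n = 2 libraries each). The log2 fold change was -1.21 with an interval of -2.34 to -0.09, and the edgeR adjusted p was 0.472 (unadjusted 0.0392). It was -1.77 without rWQS029 and -0.81 without rWQS045, each with only the other mutant library in the fit. The unadjusted p in edgeR was 0.0926 without rWQS019 and 0.159 without rWQS042. Its neighbours ins-4 and ins-6, which flank it, had values near 0, given above.

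In the cluster of ins-21, ins-22 and ins-23 on chromosome III (10023752 to 10028697), ins-22 was at 2.89 and 2.56 CPM in met-2 set-25 and at 1.57 and 2.24 CPM in N2 (log2 fold change 0.51, interval -0.51 to 1.53). ins-23 had the highest log2 fold change of the tested members, 1.13 (interval -0.78 to 3.07), from 11 and 14 counts in met-2 set-25 and 1 and 11 counts in N2. Its value was 2.67 without rWQS042 and 0.61 without rWQS019. The pair ins-7 and ins-8 on chromosome IV combined the expressed agonist with a gene that had 0 counts in both met-2 set-25 libraries and 1 and 0 counts in N2.

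H3K9 methylation is concentrated on the arms of the autosomes. Centres were taken here as the middle 50% of each autosome and arms as the rest, without use of H3K9 methylation data. By this division 16 members lie on arms, 21 in centres and 2 on X. The 10 tested members on arms had a median log2 fold change of 0.23 (range -1.08 to 0.47), beside 0.13 for the 5408 tested genes on arms. The 16 tested members in centres had a median of -0.15 (range -1.70 to 1.13), beside 0.01 for 8020 genes.

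**Figure D4:**
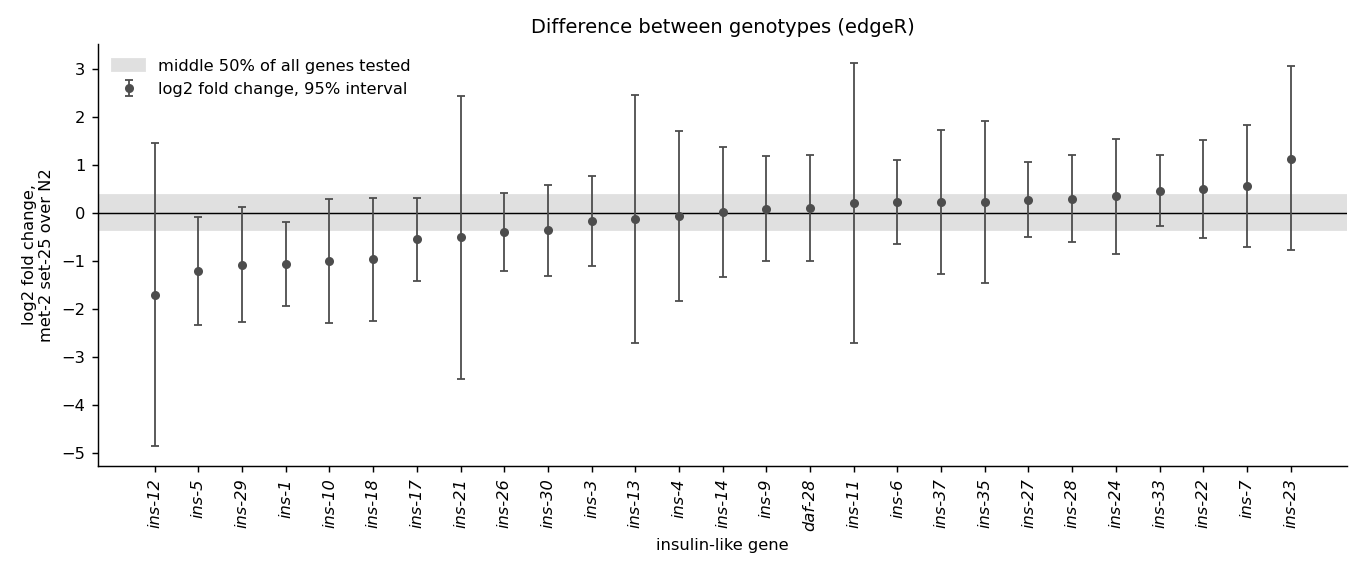
Log2 fold change, met-2 set-25 over N2, with 95% intervals (edgeR) for the 27 tested insulin-like genes; the grey band is the middle 50% of all genes tested, -0.35 to 0.37. Only the intervals of ins-1 and ins-5 leave out 0, before any adjustment for the number of genes.

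The CPM of the genotypes did not overlap for 10 members that were lower in met-2 set-25 (37%, beside 21.1% of all genes tested) and for 4 that were higher (14.8%, beside 22.1%), and 43.2% of all genes did not overlap in either direction. The lower members were ins-1, ins-3, ins-5, ins-10, ins-12, ins-17, ins-18, ins-26, ins-29 and ins-30, of which the last 3 lie on an arm and the others in centres. The higher members were ins-22 and ins-23, in a centre, and ins-28 and ins-33, on an arm. ins-10, at 0.685 and 0.426 CPM in met-2 set-25 and 1.31 and 0.929 CPM in N2, overlaps vps-39 on the opposite strand, and reads of the pair cannot be told apart without strand. The interval of the log2 fold change reached beyond 2-fold for all 27 tested members, whereas it stayed within 2-fold either way for 28.1% of all genes tested. The median half-width of the members' intervals was 1.19, so differences of 2-fold were within the error for most members.

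The receptor and the kinases downstream showed no call. daf-2 was at 105 and 79.5 CPM in met-2 set-25 and at 97.3 and 85.9 CPM in N2, with a log2 fold change of 0.01 (interval -0.63 to 0.66). age-1, the catalytic subunit of phosphoinositide 3-kinase, had a log2 fold change of -0.02 (interval -0.67 to 0.64). The signs of daf-2 and age-1 changed under several settings, with daf-2 between -0.21 and 0.20 and age-1 between -0.25 and 0.21 over the libraries left out in turn. akt-1 was at 83 and 95.1 CPM in met-2 set-25 and at 180 and 93.3 CPM in N2, so that its value of -0.62 (interval -1.58 to 0.34) rested on rWQS019, without which it was -0.07. daf-16 was at 197 and 134 CPM in met-2 set-25 and at 131 and 158 CPM in N2 (log2 fold change 0.19, interval -0.54 to 0.93, and -0.12 without rWQS029). Of the 19 tested genes of this list, edgeR and DESeq2 called 0, beside 0% and 3.31% of all genes, and the median was -0.16. By the unadjusted edgeR p, 2 were under 0.05 as lower and 0 as higher, beside 3.87% and 6.2% of all genes.

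Genes that process and secrete peptide hormones were mostly on the lower side. Of 16 tested genes 14 had a log2 fold change below 0, beside 48.4% of all genes, with a median of -0.31. The 14 include bli-4 (-0.01) and aex-5 (-0.02), both named after their values were seen. edgeR and DESeq2 called 0 of the 16 genes, beside 0% and 3.31% of all genes. Many of these genes act in neurons, and the medians of the pan-neuronal and sensory markers were -0.29 and -0.38. The part of the neuronal markers in this list's values was not tested. By the unadjusted edgeR p, 0 were under 0.05 as higher and 1 as lower, beside 6.2% and 3.87% of all genes. The lower gene was ida-1, of dense-core vesicles, named after its values were seen, at 109 and 96.4 CPM in met-2 set-25 and at 278 and 139 CPM in N2 (log2 fold change -1.03, edgeR adjusted p = 0.489). In the TGF-beta and steroid branches of dauer control 10 of 12 genes were below 0, beside 48.4% of all genes. Their median was -0.30, which was 0.03 without rWQS045 and -0.60 without rWQS029. edgeR and DESeq2 called 0 of these genes, beside 0% and 3.31% of all genes. By the unadjusted edgeR p, 2 of these genes were under 0.05 as lower and 0 as higher, beside 3.87% and 6.2% of all genes. daf-7, the TGF-beta ligand of the ASI neurons and also named after its values were seen, was at 13.9 and 21.9 CPM in met-2 set-25 and at 53.9 and 36.6 CPM in N2 (log2 fold change -1.34, interval -2.26 to -0.42, edgeR adjusted p = 0.332).

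Of the 28 targets of DAF-16 that DESeq2 tested, it called 2 as higher and 1 as lower, beside 2.49% and 0.821% of all genes. edgeR called 0 of 27, beside 0% of all genes. At its unadjusted p under 0.05, 3 were higher and 2 lower, beside 6.2% and 3.87% of all genes. fat-7, a stearoyl-CoA desaturase gene, was at 33.4 and 29.3 CPM in met-2 set-25 and at 4.7 and 5.54 CPM in N2 (log2 fold change 2.61, edgeR adjusted p = 0.0967, DESeq2 adjusted p = 3.86e-10). fat-5, a palmitoyl-CoA desaturase gene, was at 111 and 4.42 CPM in met-2 set-25 and at 1.26 and 1.09 CPM in N2 (log2 fold change 5.63, edgeR adjusted p = 0.368, DESeq2 adjusted p = 3.34e-05). Without rWQS029 its log2 fold change was 1.91 in edgeR, and DESeq2 no longer called it (adjusted p = 0.0678). dod-22 was at 1.45 and 2.04 CPM in met-2 set-25 and at 9.05 and 4.75 CPM in N2 (log2 fold change -1.98, edgeR adjusted p = 0.293, DESeq2 adjusted p = 0.0151). DESeq2 did not call dod-22 without rWQS019 (adjusted p = 1), rWQS042 (0.191) or rWQS029 (0.0509), whereas it called fat-7 whichever library was left out. The median of the list was -0.50, and it was -0.04 without rWQS019 and -1.05 without rWQS029. DAF-16 activates some of these genes and represses others, so the members of the list are not known for moving in a shared direction.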

How the data were processed

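Poly(A) RNA of whole L3 larvae was sequenced in 4 libraries. The authors deposited raw counts per gene for each genotype, made with STAR against ce10 (WormBase WS235). The submitters' notes name featureCounts and the study's methods name HTSeq, and strand use in counting is not given in the sources used here. No normalized values were used, and 0 columns were left out. Library totals ran from 22849521 to 56879896 counts.

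The tables were joined by gene ID (46748 genes, 46449 of them matched to WBcel235, Ensembl release 115, for names, coordinates and exon lengths). This annotation is later than the counting annotation. Counts were tested with edgeR 4.0.16 (TMM, filterByExpr, quasi-likelihood test, 2 residual degrees of freedom) in R 4.3.3, with Benjamini-Hochberg adjustment over 15978 genes and a threshold of 0.05. DESeq2 1.42.0 and limma 3.58.1 (voom) were alternatives, as were other scalings and filters and leaving out each library. The code was tested on simulated data. Ratios between libraries of a genotype have exact (Clopper-Pearson) 95% counting intervals. These counting intervals and the floor of 3 counts cover counting error only. The intervals of the log2 fold changes come from edgeR's quasi-likelihood fit and include the spread between libraries.

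The members, lists and tests were chosen with earlier results of these data known. Members named with all their values were those with an edgeR unadjusted p or DESeq2 adjusted p under 0.05, the 6 highest per kilobase, those of at least 1 CPM without overlap and with an absolute log2 fold change of at least 1, and those with a known genetic role. ins-10, ins-13, ins-19, ins-22, ins-23, ins-25 and ins-31 were named after their values were seen, and the agonist and antagonist groups were made with the values known. From the pathway lists daf-2, age-1, akt-1, daf-16 and the genes DESeq2 called were named, and a further gene that the naming rule covers is not reported here.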

Additional observations from a re-analysis of the deposited data

How the results depend on the processing

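No paired analysis was possible because the column names carry no replicate numbers, so the replicate block was not run. Over all genes edgeR's quasi-likelihood test called 0 higher and 0 lower, against 412 and 136 in DESeq2, 432 and 123 in edgeR's likelihood ratio test and 813 and 410 with no filter on low counts. With a library left out, edgeR called 0 to 170 higher and 0 to 58 lower, and DESeq2, an alternative chosen after seeing the data, 143 to 805 higher and 12 to 628 lower. Calls among the insulin-like genes were 1 with no filter and 0 to 2 in DESeq2 with a library left out, and 0 under every other setting run. At an unadjusted p under 0.05 there were 1 lower member with library totals alone and 4 with no filter. With a library left out there were 0 to 6 lower and 0 to 1 higher in edgeR, and 0 to 5 lower and 0 to 1 higher in DESeq2. The shares of all genes at an unadjusted p under 0.05 are not given for these settings. The counts of members at that p hence cannot set the family apart from all genes, whose calls also changed with the setting. The members' median ran from -0.73 to 0.13 in edgeR and from -0.69 to 0.17 in DESeq2 with a library left out.

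Signs reversed in limma voom for ins-11 (-0.57) and ins-35 (-0.11), with upper-quartile factors for daf-2 (-0.04) and with no filter for age-1 (0.00). In edgeR the sign changed without some library for 11 of the 27 tested members, daf-28, ins-4, ins-11, ins-27, ins-35, ins-9, ins-13, ins-14, ins-21, ins-24 and ins-37. With a library left out, log2 fold changes in edgeR and DESeq2 reversed without rWQS042 for ins-11 (-0.21 and -0.18), ins-4 (0.85 and 0.89), set-25 (0.01 and 0.05), daf-2 (-0.08 and -0.04) and age-1 (0.02 and 0.06). Without rWQS029 they reversed for ins-11 (-2.44 and -2.46), ins-27 (-0.05 and -0.02), ins-35 (-1.04 and -1.01), daf-2 (-0.21 and -0.17), age-1 (0.17 and 0.21) and daf-16 (-0.12 and -0.08). Without rWQS045 they reversed for ins-4 (0.42 and 0.41) and daf-28 (-0.20 and -0.21), and without rWQS019 for daf-28 (-0.28 and -0.29). The opposite ends of these ranges were 0.54 for ins-27, 1.11 for ins-11, 0.90 for ins-35, 0.20 for daf-2 and 0.44 for daf-16 (edgeR) and -0.25 for age-1 (DESeq2) without rWQS045, -0.84 for ins-4 without rWQS029 (edgeR), 0.69 for daf-28 without rWQS042 (DESeq2) and -0.61 for set-25 without rWQS019 (edgeR). The cause was not tested. Low counts limit ins-11, ins-13, ins-21, ins-23 and ins-37, and ins-37 also shares exon sequence with an snRNA gene on the same strand. With 2 libraries a genotype, leaving a library out assumes that the lone library varies like the others.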
